A study of Mus musculus with 12 samples.

Results

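The phase II conjugation enzymes analysed here attach glucuronic acid, glutathione or sulfate to small molecules. The set was taken as every protein-coding gene whose GENCODE M21 symbol starts with Ugt1a, Ugt2, Gsta, Gstm, Gstp, Gstt, Gsto, Gstk, Mgst or Sult and whose raw counts summed to at least 10 over 12 libraries. This gave 44 genes of the 46078 in the count tables. They comprised 9 UGT1 and 6 UGT2 glucuronosyltransferases, 20 cytosolic or mitochondrial glutathione S-transferases (GSTs: 4 alpha, 7 mu, 3 pi, 3 theta, 2 omega and 1 kappa), 3 microsomal GSTs (MGSTs) and 6 sulfotransferases (SULTs). Another 20 genes with these prefixes fell under the minimum, and 13 of them had no count. The nearest below it were Ugt2b37 with 4 counts, Ugt2b1 with 6 and Sult4a1 with 7, and the nearest above were Gsta2 with 10, Gsto2 with 36 and Ugt2b38 with 37.

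RNA was sequenced from epithelium scraped from the proximal ileum of male C57BL/6 mice. The mice were gavaged with sesame oil vehicle or with TCDD at 3, 10 or 30 µg/kg every 4 days for 28 days, from 28 to 56 days of age, and each of the 4 groups had 3 libraries. TCDD (dioxin) is a persistent ligand of the aryl hydrocarbon receptor (AhR). The 3 doses were compared with the same 3 vehicle libraries, so the comparisons are not independent of each other.

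Phase II enzymes make xenobiotics, bilirubin, bile acids, steroids and lipid peroxidation products more water soluble, which favours their export into bile, urine or the gut lumen. Ligand-bound AhR enters the nucleus, pairs with ARNT and binds dioxin response elements (DREs), whose core is GCGTG. In liver, certain UGT1 and GST genes are classical members of the AhR gene battery beside the cytochrome P450 genes Cyp1a1 and Cyp1b1, and NRF2, a transcription factor that the electrophile sensor KEAP1 releases, acts on several of the same genes through elements with the core TGACNNNGC. The UGT1 genes are unusual in that they lie at a single locus, where each has its own promoter and first exon and all splice to the same last exons.

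Because each UGT1 gene is read from its own promoter, the 250 bases before the RefSeq start are shown for 3 genes whose transcripts rose with dose (Ugt1a7c, Ugt1a9 and Ugt1a5) and for the abundant Ugt1a1, which was not called. All lie on the + strand of GRCm38.p6, at chr1:88094751-88095000 for Ugt1a7c, chr1:88070529-88070778 for Ugt1a9, chr1:88165762-88166011 for Ugt1a5 and chr1:88211709-88211958 for Ugt1a1. Sequences run 5′ to 3′, and capitals mark a match to GCGTG or TGACNNNGC on either strand.
Ugt1a7c: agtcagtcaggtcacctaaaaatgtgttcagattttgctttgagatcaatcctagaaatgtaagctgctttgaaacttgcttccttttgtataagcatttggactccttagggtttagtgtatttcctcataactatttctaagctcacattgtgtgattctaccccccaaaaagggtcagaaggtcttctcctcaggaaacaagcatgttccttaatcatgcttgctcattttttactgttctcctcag
Ugt1a9: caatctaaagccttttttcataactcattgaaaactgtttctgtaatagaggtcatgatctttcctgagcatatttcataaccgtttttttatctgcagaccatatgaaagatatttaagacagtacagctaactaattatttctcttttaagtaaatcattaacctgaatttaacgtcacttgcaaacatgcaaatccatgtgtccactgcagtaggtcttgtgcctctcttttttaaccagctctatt
Ugt1a5: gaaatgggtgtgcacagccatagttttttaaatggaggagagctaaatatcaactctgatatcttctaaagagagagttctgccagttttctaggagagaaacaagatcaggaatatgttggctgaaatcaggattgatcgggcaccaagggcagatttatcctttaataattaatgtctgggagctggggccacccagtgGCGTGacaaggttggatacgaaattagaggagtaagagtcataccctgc
Ugt1a1: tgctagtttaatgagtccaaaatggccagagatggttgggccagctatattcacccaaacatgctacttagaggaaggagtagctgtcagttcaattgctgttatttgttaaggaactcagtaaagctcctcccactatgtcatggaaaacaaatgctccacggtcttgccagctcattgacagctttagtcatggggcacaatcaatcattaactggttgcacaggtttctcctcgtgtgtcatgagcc
The Ugt1a5 window held 1 GCGTG, and no other match to either motif lay in these 4 windows. Promoters were found in the RefSeq table for 41 of the 44 genes, some with more than 1 start. GCGTG was present in 12 of their 51 promoters (23.5%), from 11 genes, against 28.2% of all 32851 promoters in the table. TGACNNNGC, which can overlap GCGTG, was present in 4 of the 51 (7.84%) against 10.2% of all. Among the 7 genes with a promoter in the table that were called at 30 µg/kg, Ugt1a5 alone held GCGTG.

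Gene counts per library totalled 11695887 to 22180274, and 3 counts, the floor of detection used here, corresponded to 0.135 to 0.257 CPM (counts scaled to library size). Replicate libraries of a group differed by more than sampling noise in all pairs (chi-square per gene 9.63 to 42.8). A score of 11 circadian clock genes was positive in 6 libraries (vehicle replicates 2 and 3, replicate 1 at 3 and at 10 µg/kg, and replicates 1 and 2 at 30 µg/kg) and negative in the other 6. The 10 enterocyte markers summed to 31490 to 37720 CPM in vehicle and 29670 to 40770 CPM at 30 µg/kg, and none was called at any dose. Of the ileal markers, Fabp6, the ileal bile acid binding protein, averaged 0.0672 CPM in vehicle, 31.2 CPM at 3 µg/kg and 0.0957 CPM at 30 µg/kg, so this marker of the labelled tissue was near 0 in 3 of the 4 groups. Fgf15 (0.0651 CPM in vehicle, 1.80 CPM at 3 µg/kg) and Slc10a2 (1.78 and 10.3 CPM) were also highest at 3 µg/kg. Fabp6 and Fgf15 were called higher at that dose, and Slc10a2 was not. The bile acid exporter genes Slc51a and Slc51b averaged 136 and 71.9 CPM in vehicle and were not called at any dose. Of 4 markers of the proximal small intestine, Slc40a1 alone was called, lower at 30 µg/kg (log2 change -1.06, adjusted p 0.0134). Gata4 averaged 163 CPM in vehicle and 168 CPM at 30 µg/kg, and Lct 3258 and 2463 CPM. The 6 colon markers summed to 2.89 to 4.03 CPM in vehicle, 59.1 to 78.1 CPM at 10 µg/kg and 5.42 to 12.1 CPM at 30 µg/kg. The 6 Paneth cell markers summed to 662 to 1003 CPM in vehicle and 2077 to 2797 CPM at 30 µg/kg, where 5 of them were called higher, as were 3 of 6 goblet, 5 of 6 enteroendocrine and 2 of 6 T cell markers. In such bulk scrapings, fewer cells of a type and less RNA per cell cannot be told apart. The 6 pancreatic acinar markers summed to 5.47 to 6.76 CPM in vehicle, 0.226 to 0.352 CPM at 3 µg/kg and 0.383 to 1.24 CPM at 30 µg/kg, and the 3 that could be tested were called lower at both doses. The part of these shifts in the results given next was not tested, and a difference between groups in the stretch of gut scraped cannot be told apart from dose.

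Of the 8 UGT1 genes tested, 3 were called higher at 10 µg/kg TCDD and 6 at 30 µg/kg, where 1 gene each of the alpha, mu and pi GSTs was also called higher, while the UGT2, theta, omega, kappa, microsomal and sulfotransferase genes gave no call. A gene was called when edgeR's quasi-likelihood test gave an adjusted p under 0.05 over the 15823 genes tested and a change of at least 1.5-fold, and 39 of the 44 genes had enough counts to be tested. At 3 µg/kg no conjugation gene was called in edgeR or DESeq2, where 0.228% of all genes tested were called by edgeR, and 4 had an unadjusted p under 0.05 (Ugt1a1, Ugt1a2, Ugt1a6b and Ugt1a7c), against 11.4% of all genes. At 10 µg/kg 3 of 39 were called (7.69%), all higher, against 0.613% of all genes and 0.487% called higher. That count was 1 to 5 when 1 library was left out and 7 with DESeq2 or with no filter on low counts, where Ugt1a1 was called lower. Over all genes, the counts in these fits were 45 to 198, 262 and 215, against 97. At 30 µg/kg 9 of 39 were called (23.1%), all higher, against 3.97% of all genes and 3.08% called higher. For a slope over the dose rank, the fold limit applied to the fitted change from vehicle to 30 µg/kg. Such a slope was called for 9 of 39, against 3.29%. These included Ugt1a10, not called at 30 µg/kg, and left out Gstm2 (adjusted p 0.0567 for its slope), which was called there. An F test across the 4 groups, which has no fold limit, also called 9, against 6.78%, and they were the 9 genes called at 30 µg/kg.

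The shift was not shared by the whole set. The median log2 change of the 39 tested genes was -0.06 at 3, 0.13 at 10 and 0.07 at 30 µg/kg, against 0.00, -0.01 and -0.02 for all genes tested. At 30 µg/kg 22 of the 39 lay above vehicle and 17 below. The libraries of 30 µg/kg lay wholly above those of vehicle for 14 of the 39, against 14.2% of all genes, and wholly below for 6, against 12.5%. Summed over all 44 genes, expression averaged 2672 CPM (SD 255, 3 libraries) in vehicle and 2828 CPM (SD 177) at 30 µg/kg, and the ranges of the groups overlapped.

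**Figure D1:**
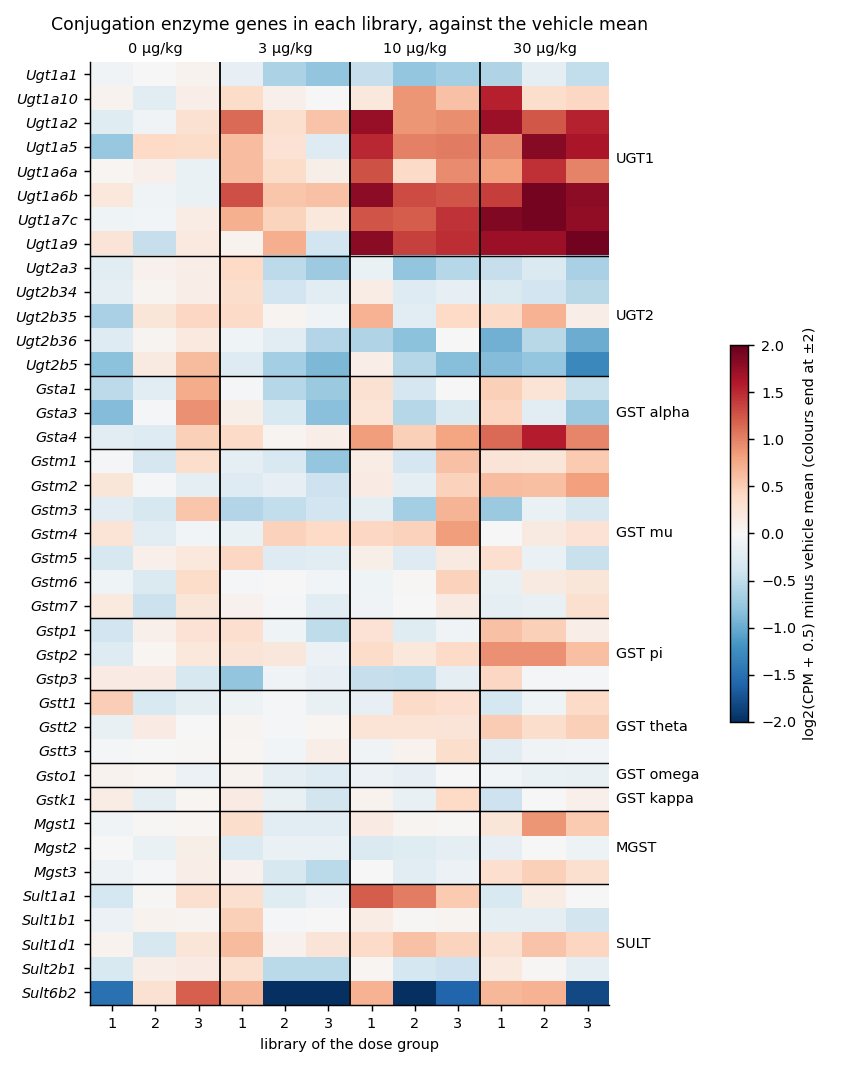
Each cell gives log2(CPM + 0.5) in 1 library minus the mean of the 3 vehicle libraries, for the 39 tested genes (rows, by family) and 12 libraries (columns, by dose in µg/kg), with colours ending at ±2. The red block at 10 and 30 µg/kg covers the UGT1 rows other than Ugt1a1, and Sult6b2 varies between libraries of the same dose.

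Ugt1a7c, a UGT1 glucuronosyltransferase of phenols, was the most abundant gene that rose (ENSMUSG00000090124, chromosome 1, 88095062 to 88220002 on GRCm38). Its 3 libraries had 77.3, 78.9 and 90.8 CPM in vehicle, 134, 112 and 95.5 CPM at 3 µg/kg, 198, 190 and 225 CPM at 10 µg/kg, and 298, 310 and 281 CPM at 30 µg/kg. No library of a higher dose fell to the level of a lower one, from vehicle upward. The log2 change was 0.47 (SE 0.12) at 3 µg/kg, not called (adjusted p 0.208), 1.31 (SE 0.12) at 10 µg/kg (adjusted p 0.000199) and 1.85 (SE 0.13) at 30 µg/kg (adjusted p 4.77e-06), the last a 3.6-fold rise.

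Ugt1a9, whose product conjugates bulky phenols, rose by the largest factor among the called genes, from a low level (ENSMUSG00000090175, chromosome 1, 88070800 to 88218997). It had 1.02, 0.417 and 0.946 CPM in vehicle, 0.830, 1.58 and 0.470 CPM at 3 µg/kg, 3.89, 2.76 and 3.00 CPM at 10 µg/kg, and 3.63, 3.64 and 4.33 CPM at 30 µg/kg. Vehicle and 3 µg/kg overlapped, and every library of 10 and 30 µg/kg lay above both. The log2 change was 2.03 (SE 0.40, adjusted p 0.0372) at 10 µg/kg and 2.30 (SE 0.39, adjusted p 0.00393) at 30 µg/kg. The call at 10 µg/kg was lost in 11 of the 20 alternatives, namely with the library index as a covariate, in the fit of those 2 groups alone, and without any 1 library of vehicle, 10 or 30 µg/kg.

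The paired genes Ugt1a6a and Ugt1a6b encode near-identical enzymes for planar phenols and are the UGT1 genes usually listed in the AhR battery. Ugt1a6b (ENSMUSG00000090145, chromosome 1, 88103252 to 88219003) had 2.48, 1.94 and 1.84 CPM in vehicle, 5.81, 3.27 and 3.35 CPM at 3 µg/kg, 8.35, 5.88 and 5.63 CPM at 10 µg/kg, and 6.23, 9.15 and 8.38 CPM at 30 µg/kg. All treated libraries lay above vehicle, and the 10 and 30 µg/kg ranges overlapped. Its log2 change was 0.98 (SE 0.27, adjusted p 0.239, not called) at 3, 1.66 (SE 0.27, adjusted p 0.0125) at 10 and 1.92 (SE 0.27, adjusted p 0.00104) at 30 µg/kg. The call of Ugt1a6b at 10 µg/kg was lost without vehicle replicate 2, vehicle replicate 3 or replicate 1 of 10 µg/kg. Ugt1a6a (ENSMUSG00000054545, chromosome 1, 88134809 to 88218997) had 7.28, 7.64 and 6.46 CPM in vehicle and 12.9, 20.5 and 14.6 CPM at 30 µg/kg, without overlap. Its log2 change was 0.96 (SE 0.23, adjusted p 0.0930, not called) at 10 µg/kg and 1.16 (SE 0.23, adjusted p 0.0116) at 30 µg/kg, and that call was lost without vehicle replicate 3 (adjusted p 0.0519).

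Ugt1a2 and Ugt1a5 were called at 30 µg/kg and for the trend. Ugt1a2 (ENSMUSG00000090171, chromosome 1, 88200601 to 88218997) had 1.41, 1.67 and 2.31 CPM in vehicle and 6.95, 4.89 and 6.08 CPM at 30 µg/kg, so that the lowest treated library was above the highest control. The log2 change of Ugt1a2 was 0.83 (SE 0.33) at 3 µg/kg, 1.43 (SE 0.32, adjusted p 0.0756, not called) at 10 µg/kg and 1.74 (SE 0.32, adjusted p 0.00603) at 30 µg/kg. Ugt1a5 (ENSMUSG00000089943, chromosome 1, 88166012 to 88218997) had 1.64, 4.26 and 4.20 CPM in vehicle, 5.06, 3.91 and 2.53 CPM at 3 µg/kg, 9.87, 6.82 and 6.98 CPM at 10 µg/kg, and 6.59, 12.3 and 10.8 CPM at 30 µg/kg. Vehicle replicate 1 was the lowest library, and the other controls still lay below every library of 10 and 30 µg/kg. The rise of Ugt1a5 at 30 µg/kg was 1.53 on the log2 scale (SE 0.35, adjusted p 0.0232), and it was not called without replicate 2 (adjusted p 0.0767) or replicate 3 (adjusted p 0.0755) of 30 µg/kg.

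Ugt1a10 and Ugt1a8 were close to the floor. Ugt1a10 had 3 to 6 counts per library in vehicle and 33, 5 and 9 counts at 30 µg/kg, where its log2 change of 1.88 (SE 0.59) was not called (adjusted p 0.0850). Without the library of 33 counts, replicate 1, that change was 0.94 (adjusted p 0.405). A trend was called for Ugt1a10 (adjusted p 0.0490), and the call was not made in 16 of 19 alternatives. Among these, the filter at a mean of at least 1 CPM removed the gene, so there it was not tested. Ugt1a8 had at most 9 counts in any library and was not tested.

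Ugt1a1, which conjugates bilirubin, went the other way. It had 129, 134 and 142 CPM in vehicle, 121, 87.2 and 78.1 CPM at 3 µg/kg, 97.8, 78.4 and 84.2 CPM at 10 µg/kg, and 88.5, 119 and 95.4 CPM at 30 µg/kg. All 9 treated libraries lay below all 3 controls, with no order among the doses. The log2 change was -0.50 (SE 0.16, adjusted p 0.271) at 3, -0.64 (SE 0.16, adjusted p 0.0943) at 10 and -0.42 (SE 0.16, adjusted p 0.138) at 30 µg/kg, and none of the 3 was called. Ugt1a1 was called lower at 10 µg/kg by DESeq2, in the fit with no filter on low counts, in the fit of those 2 groups alone and without replicate 1 of 3 µg/kg.

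**Figure D2:**
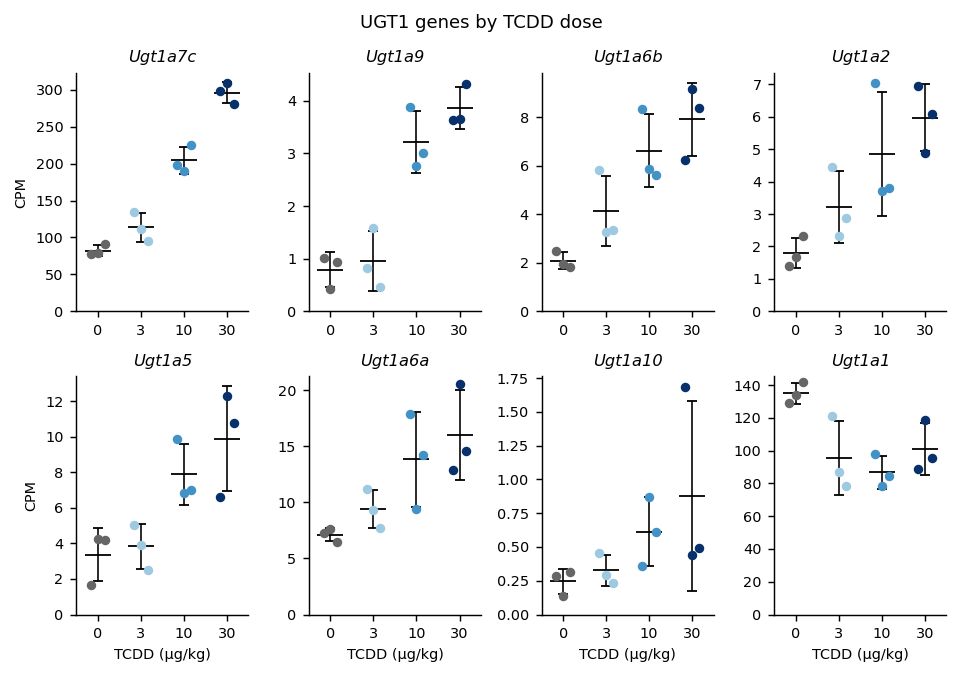
CPM of the 8 tested UGT1 genes (vertical axes from 0, a separate scale for each gene) against TCDD dose in µg/kg, with 1 point per library and bars for the mean ± SD of 3 libraries. Ugt1a7c goes from 77.3 to 90.8 CPM in vehicle to 281 to 310 CPM at 30 µg/kg, and Ugt1a1 lies lower in all treated libraries than in vehicle.

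The counts credited to the locus therefore changed in make-up. Ugt1a1 took 57.0% to 58.5% of the summed UGT1 CPM in the vehicle libraries, 39.6% to 42.7% at 3 µg/kg, 24.5% to 28.5% at 10 µg/kg and 20.8% to 24.8% at 30 µg/kg. The share of Ugt1a7c was 34.4% to 36.5% in vehicle, 47.5% to 50.8% at 3 µg/kg, 57.6% to 65.5% at 10 µg/kg and 64.6% to 70.1% at 30 µg/kg. The shares separated vehicle from 3 µg/kg with no overlap, at a dose where no single UGT1 gene was called. Because these genes made up most of the sum in every library, their shares mirror each other and are not separate observations. These shares were computed after the levels had been seen and were not tested. The summed CPM of the UGT1 genes without Ugt1a1 averaged 97.8 ± 8.09 (SD, 3 libraries) in vehicle, 136 ± 24.9 at 3, 242 ± 20.1 at 10 and 341 ± 17.8 at 30 µg/kg, whereas with Ugt1a1 the sum averaged 233 ± 14.5 in vehicle, 231 ± 47.1 at 3, 328 ± 26.1 at 10 and 442 ± 32.5 at 30 µg/kg.

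**Figure D3:**
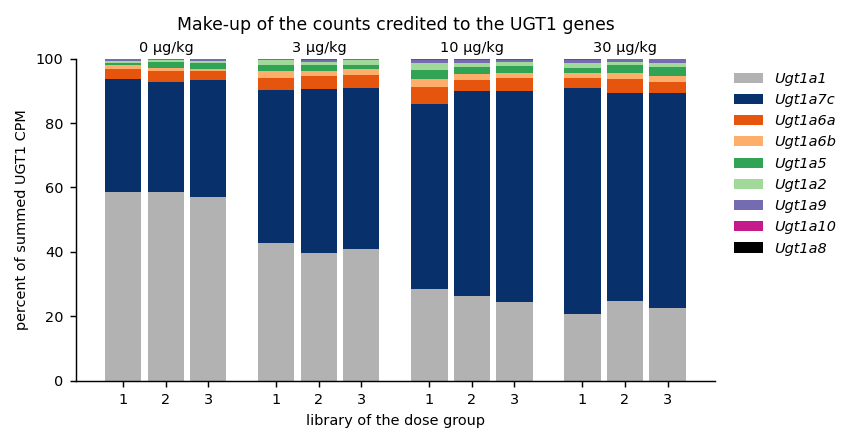
Stacked bars give the percent of the summed CPM of the 9 UGT1 genes that was credited to each gene, in each of 12 libraries ordered by TCDD dose. The Ugt1a1 segment shrinks from 57.0% or more in vehicle to 24.8% or less at 30 µg/kg as that of Ugt1a7c grows.

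How reads were credited limits these values. The 9 UGT1 genes share 1311 bases of last exons (within chromosome 1, 88215044 to 88218997), and a read there belongs to no single gene. Outside the exons of other genes, GENCODE M21 leaves 1915 bases to Ugt1a7c, of which 917 are upstream of the common exons and 998 are downstream, where reads from other UGT1 transcripts would also be credited to it. Ugt1a6a has 2142 such bases, but 222 upstream and 1920 between the common exons. Among windows of 50 bases outside the exons common to all 9 genes, 91.5% of those of Ugt1a6a, 56.0% of Ugt1a6b and 34.6% of Ugt1a7c occurred word for word in another gene, against 7.30% for Ugt1a9, 12.7% for Ugt1a2, 12.8% for Ugt1a5 and 0.1098% for Ugt1a1. Reads from such windows may be lost or credited to another gene. The values of Ugt1a6a, Ugt1a6b and Ugt1a7c are therefore less certain than those of Ugt1a9, Ugt1a2 and Ugt1a5. Which UGT1 gene the reads came from is uncertain for the 998 downstream bases of Ugt1a7c and the 1920 of Ugt1a6a between the common exons. All 938 bases left to Ugt1a6b lie upstream of these exons. Per kilobase of unshared exon, Ugt1a1 stood at 350.0 CPM in vehicle, or 148 CPM if reads were assigned by strand, since a gene on the opposite strand covers part of its first exon. On the same scale Ugt1a7c went from 43.0 CPM in vehicle to 155 CPM at 30 µg/kg, where Ugt1a1 stood at 262 or 110.0 CPM, so which of them was higher at 30 µg/kg depends on the strand setting.

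The UGT2 genes conjugate bile acids and steroid hormones, and none of the 5 tested was called. Ugt2b34, the most abundant per length in vehicle at 131 CPM per kilobase, had 490, 584 and 616 CPM in vehicle, 712, 432 and 478 CPM at 3 µg/kg, 625, 468 and 502 CPM at 10 µg/kg, and 460, 430 and 383 CPM at 30 µg/kg. Its 3 libraries of 30 µg/kg lay below vehicle, with a log2 change of -0.41 (SE 0.18, adjusted p 0.201). Ugt2a3, next at 47.7 CPM per kilobase, changed by -0.47 (SE 0.25, adjusted p 0.308) on the log2 scale, also without overlap. Among genes at lower counts, Ugt2b36 had 1.97, 2.55 and 2.89 CPM in vehicle and 1.02, 1.51 and 0.986 CPM at 30 µg/kg, and the difference on the log2 scale was -1.10 (SE 0.33, adjusted p 0.0690). Ugt2b5 had 1.02, 2.55 and 3.68 CPM in vehicle and 0.970, 1.07 and 0.602 CPM at 30 µg/kg, which overlapped through vehicle replicate 1, with a log2 change of -1.47 (SE 0.49, adjusted p 0.0982). Of the windows of Ugt2b5, 41.7% recur in other genes, mostly in Ugt2b38, which had at most 7 counts in any library and was not tested. Ugt2b35 went the other way, with a log2 change of 0.36 (SE 0.28, adjusted p 0.499) at 30 µg/kg and overlapping groups. Summed UGT2 expression averaged 682 CPM (SD 85.1, 3 libraries) in vehicle and 515 CPM (SD 47.5) at 30 µg/kg. Ugt2b34 alone averaged 563 and 424 CPM, so the sum mostly follows that gene.

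Among the glutathione S-transferases, Gsta4, which conjugates the lipid peroxidation product 4-hydroxynonenal, rose most (ENSMUSG00000032348, chromosome 9, 78182774 to 78209349). It had 8.91, 8.61 and 14.6 CPM in vehicle, 13.7, 10.8 and 11.5 CPM at 3 µg/kg, 18.9, 14.7 and 18.3 CPM at 10 µg/kg, and 23.4, 31.7 and 21.02 CPM at 30 µg/kg. Vehicle replicate 3 was the highest control, above the 3 µg/kg libraries and just under the lowest library of 10 µg/kg, and all libraries of 30 µg/kg lay above the rest. The log2 change was 0.69 (SE 0.21, adjusted p 0.161, not called) at 10 µg/kg and 1.24 (SE 0.21, adjusted p 0.00400) at 30 µg/kg, a 2.36-fold rise. None of its 50-base windows recurs in another gene.

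The other alpha genes, which conjugate electrophiles and reduce lipid hydroperoxides, showed no such change. Gsta1, an AhR battery gene in liver and the most abundant alpha gene per length at 40.7 CPM per kilobase in vehicle, had 25.1, 31.01 and 60.5 CPM in vehicle and 50.5, 43.7 and 26.3 CPM at 30 µg/kg. The groups overlapped throughout, and the log2 change was 0.05 (SE 0.32, adjusted p 0.957). Of its windows, 89.7% recur elsewhere, chiefly in Gm3776, so its counts are uncertain. Gsta2 had 0 to 4 counts per library and Gsta3 changed by -0.33 (SE 0.53, adjusted p 0.776) at 30 µg/kg.

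Gstp2, of the pi class, which detoxifies carcinogen epoxides, was called at 30 µg/kg (ENSMUSG00000038155, chromosome 19, 4040285 to 4046023). It had 12.3, 15.3 and 17.2 CPM in vehicle, 17.9, 17.3 and 13.7 CPM at 3 µg/kg, 19.2, 17.1 and 19.5 CPM at 10 µg/kg, and 28.4, 28.3 and 22.6 CPM at 30 µg/kg. Only the 30 µg/kg group stood clear of vehicle, with a log2 change of 0.82 (SE 0.15, adjusted p 0.00537). Its neighbour Gstp1, at 58.9 CPM per kilobase in vehicle against 13.4 for Gstp2, changed by 0.38 (SE 0.22, adjusted p 0.345) with overlapping groups. Of the windows of Gstp1 51.01% recur in Gstp2, so reads of these genes may be lost or exchanged. Gstp3 changed by 0.14 (SE 0.26, adjusted p 0.799).

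Gstm2, of the mu class, which conjugates aromatic epoxides and quinones, was called at 30 µg/kg (ENSMUSG00000040562, chromosome 3, 107981702 to 107986453). It had 10.4, 8.43 and 7.57 CPM in vehicle, 7.25, 7.77 and 6.40 CPM at 3 µg/kg, 9.87, 7.55 and 12.1 CPM at 10 µg/kg, and 13.6, 13.5 and 15.8 CPM at 30 µg/kg. Only the last group lay clear of vehicle, and the log2 change of 0.71 (SE 0.18, adjusted p 0.0342) was not called with the library index as a covariate (adjusted p 0.0675), after removal of the length and GC trend (adjusted p 0.0795), or without any 1 of 5 libraries, namely vehicle replicates 2 (adjusted p 0.115) and 3 (0.120) and each replicate of 30 µg/kg (0.0707, 0.0664 and 0.116). The more abundant mu genes Gstm3 and Gstm1, at 81.4 and 30.4 CPM per kilobase in vehicle, changed by -0.44 (SE 0.31, adjusted p 0.440) and 0.32 (SE 0.23, adjusted p 0.452) on the log2 scale. Gstm4, Gstm5, Gstm6 and Gstm7 lay between -0.07 and 0.15.

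Of the theta class, which acts on small halogenated compounds, Gstt2 had 6.37, 8.06 and 7.09 CPM in vehicle and 10.4, 9.24 and 10.1 CPM at 30 µg/kg. These groups did not overlap, and the log2 change of 0.47 (SE 0.12, adjusted p 0.0430) was under the 1.5-fold limit. Gstt1 and Gstt3, at 9.38 and 8.77 CPM per kilobase in vehicle, changed by -0.03 (SE 0.24) and -0.11 (SE 0.11). Gsto1, which reduces dehydroascorbate and was the most abundant cytosolic GST per length at 130.1 CPM per kilobase in vehicle, changed by -0.11 (SE 0.10, adjusted p 0.558), and Gstk1, a mitochondrial and peroxisomal enzyme, by -0.10 (SE 0.18, adjusted p 0.812). Gsto2 had at most 16 counts in any library.

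**Figure D4:**
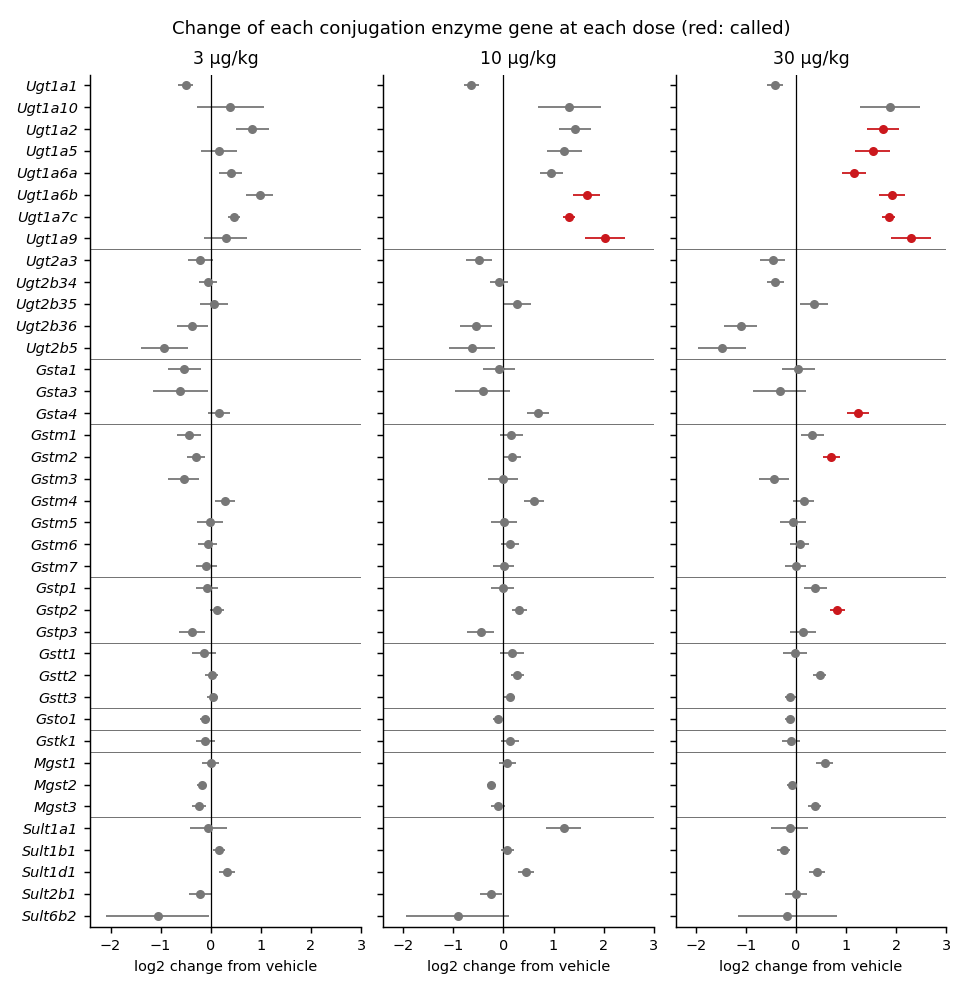
Log2 change from vehicle (horizontal axes) with its SE for the 39 tested genes, by family from UGT1 at the top to SULT at the bottom, at 3, 10 and 30 µg/kg, with red points for genes called by edgeR. No point is red at 3 µg/kg, 3 UGT1 genes are red at 10 µg/kg, and 6 UGT1 and 3 GST genes are red at 30 µg/kg.

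The microsomal enzymes are membrane proteins with glutathione transferase or peroxidase activity. Mgst1 had 105, 112 and 113 CPM in vehicle and 130, 203 and 158 CPM at 30 µg/kg. These libraries did not overlap, but the spread at 30 µg/kg was wide and the log2 change of 0.57 (SE 0.17, adjusted p 0.0680) was not called, except without replicate 1 of that dose (0.72, adjusted p 0.0332). Mgst3, the most abundant per length at 92.1 CPM per kilobase in vehicle, had 94.1, 98.3 and 111 CPM in vehicle and 127, 140 and 125 CPM at 30 µg/kg, with a log2 change of 0.37 (SE 0.14, adjusted p 0.139). Mgst2, which forms leukotriene C4, changed by -0.08 (SE 0.09, adjusted p 0.619).

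**Figure D5:**
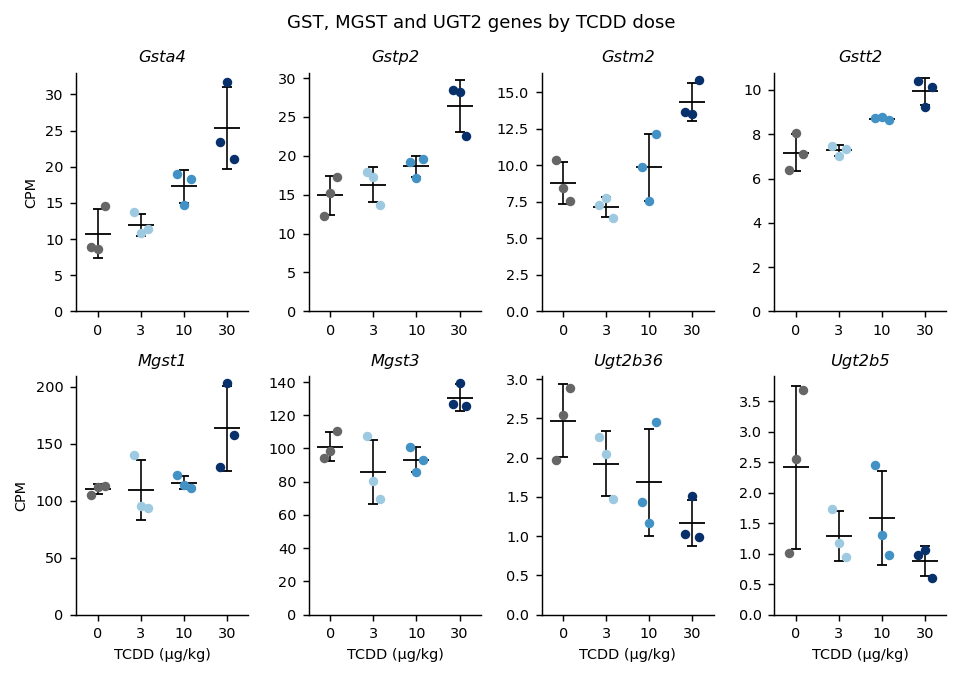
CPM of Gsta4, Gstp2, Gstm2, Gstt2, Mgst1, Mgst3, Ugt2b36 and Ugt2b5 (vertical axes from 0, a separate scale for each) against TCDD dose in µg/kg, with 1 point per library and bars for the mean ± SD of 3 libraries. The 30 µg/kg libraries stand above vehicle for the 6 GST and MGST genes and low for both UGT2 genes, of which Ugt2b5 overlaps vehicle.

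None of the 5 tested sulfotransferases was called at any dose. Sult1b1, which sulfates thyroid hormones and phenols and was highest per length at 114 CPM per kilobase in vehicle, had 291, 334 and 329 CPM in vehicle and 281, 278 and 245 CPM at 30 µg/kg, and its log2 difference was -0.25 (SE 0.13, adjusted p 0.285). Sult1d1, which sulfates catecholamines, had 200, 152 and 226 CPM in vehicle and 234, 283 and 257 CPM at 30 µg/kg, and its log2 difference was 0.42 (SE 0.16, adjusted p 0.145). Both were free of overlap, by narrow gaps. Sult2b1, a cholesterol sulfotransferase, changed by less than 0.01 (SE 0.22, adjusted p 0.996).

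Sult1a1, a phenol sulfotransferase, was highest at 10 µg/kg. Its libraries had 0.677, 1.02 and 1.37 CPM in vehicle, 2.95, 2.54 and 1.65 CPM at 10 µg/kg and 0.715, 1.16 and 0.986 CPM at 30 µg/kg. On the log2 scale Sult1a1 differed from vehicle by 1.21 (SE 0.35, adjusted p 0.142, not called) at 10 µg/kg and by -0.13 (SE 0.37, adjusted p 0.888) at 30 µg/kg. The 10 µg/kg libraries were also those with the colon marker Car1, at 53.9 CPM on average and 0 counts in all other libraries. Its part in the Sult1a1 values was not tested.

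The genes that supply and carry the conjugates were examined beside the enzymes. Of 5 genes for UDP-glucuronate supply, 11 for glutathione supply and turnover, 7 for the sulfate donor PAPS, 6 conjugate exporters, 8 other conjugation or hydrolysis genes and 13 regulators that were tested, none was called at any dose. Ugdh, which makes UDP-glucuronate, averaged 247 CPM (SD 39.9) in the 3 vehicle libraries and 177 CPM (SD 22.4) in those of 30 µg/kg, with a log2 change of -0.48 (SE 0.14, adjusted p 0.0719). Slc35d2, a nucleotide sugar transporter, changed by -0.49 (SE 0.12, adjusted p 0.0326), under the fold limit. Among the regulators, Ahr changed by 0.55 (SE 0.16, adjusted p 0.0723), the NRF2 gene Nfe2l2 by 0.22 (SE 0.08, adjusted p 0.140) and the vitamin D receptor gene Vdr by 0.58 (SE 0.11, adjusted p 0.00800), the last just under the fold limit. Over the dose rank both Ahr (adjusted p 0.0395) and Vdr (adjusted p 0.00800) had a called slope. Their fitted log2 changes from vehicle to 30 µg/kg were 0.59 for Ahr and 0.60 for Vdr. Vdr also passed the F test across the groups (adjusted p 0.0127). So did Ugdh (adjusted p 0.0470), Ugp2 of the UDP-glucuronate list (adjusted p 0.0401) and Impad1 of the PAPS list (adjusted p 0.00972). At 30 µg/kg Ugp2 and Impad1 each changed by -0.26 on the log2 scale. Of 6 tested AhR battery genes outside phase II, 4 were called higher at 30 µg/kg, and Cyp1a1 rose by 7.01 (SE 0.57, adjusted p 2.31e-05) on the log2 scale, against 2.30 for Ugt1a9. The others called were Cyp1b1 (5.53, adjusted p 7.93e-08), Ahrr (3.85, adjusted p 6.95e-07) and Tiparp (1.38, adjusted p 0.000106). Aldh3a1 had at most 2 counts in any library and was not tested. Cyp1a2, of the same list, had 0.788 to 2.32 CPM in vehicle but no read at 3 µg/kg in any library, where it was called lower (adjusted p 0.00824). It averaged 0.312 CPM at 10 µg/kg (log2 change -2.14, adjusted p 0.0942, not called). At 30 µg/kg it averaged 1.65 CPM and changed by 0.21 (adjusted p 0.818, not called). Nqo1, which AhR and NRF2 share, changed by 0.47 (SE 0.16, adjusted p 0.120).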

How the data were processed

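The deposited files held raw counts of reads per Ensembl gene for 12 libraries of intestinal epithelium scrapings, 1 file per library. The authors made these counts, per the submitters' processing notes, on GRCm38 with FastQC 0.11.3, Trimmomatic 0.33, TopHat2 2.1.0, SAMtools 1.2.0 and HTSeq 0.6.1, with DESeq also named. The annotation release and strand setting were not given in the sources used here. Entries that name no gene held 60.3% to 64.6% of reads (31.4% to 38.8% not unique, 25.0% to 30.1% without a feature) and were left out, so reads shared by paralogues were mostly lost. The 30 µg/kg libraries stood apart, with 36.2% to 38.8% not unique and 25.0% to 25.4% without a feature. The other groups had 31.4% to 34.6% and 28.0% to 30.1%, without overlap. The part of this difference in the changes at 30 µg/kg was not tested and cannot be told apart from dose. Groups came from the labels, and replicates were numbered in accession order. Whether libraries of a group came from separate cages or batches is not stated, so p-values measure the spread between these libraries.

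Counts were analysed with edgeR 4.0.16 (R 4.3.3): filterByExpr, TMM factors, 1 quasi-likelihood fit over all libraries, and Benjamini-Hochberg adjustment over 15823 genes. CPM used TMM-scaled library sizes. A floor of 3 counts covers counting error only. Symbols, positions and exon lengths were those of GENCODE M21 (45229 of 46078 genes matched), and promoters were those of RefSeq. The script was tested on simulated data. Alternatives comprised 8 settings (DESeq2 1.42.0 among them) and leaving out each library. Genes, gene lists and tests were chosen with earlier results of these data known. Values were given for genes called at any dose or for the trend, the 2 highest per length in each family, AhR battery members, and genes with an unadjusted p under 0.05 at 30 µg/kg; a few others are named with their values seen.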

Additional observations from a re-analysis of the deposited data

How the results depend on the processing

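Of the 9 genes called higher at 30 µg/kg, Ugt1a2, Ugt1a6b, Ugt1a7c, Ugt1a9, Gsta4 and Gstp2 were called in all 8 other settings and in all 12 fits that left out 1 library. The number of conjugation genes called at 10 µg/kg was 7 with no filter on low counts, 7 with DESeq2 and 6 with the clock score as a covariate, against 3. The number with any difference among the groups was 14, 14 and 16 in those settings, against 9. Over all genes, the calls at 10 µg/kg were 215, 262 and 130 in those settings, against 97. The all-gene calls for any difference were 1377, 2143 and 2048, against 1073. Leaving out 1 library gave 0 to 1 conjugation genes at 3 µg/kg (Ugt1a1, lower, without replicate 1 of 3 µg/kg). These fits gave 1 to 5 at 10 µg/kg and 7 to 10 at 30 µg/kg. They gave 8 to 9 for the trend and 5 to 13 for any difference. Over all genes the same fits called 19 to 162 at 3 µg/kg, 45 to 198 at 10 µg/kg and 433 to 768 at 30 µg/kg. They called 297 to 640 of all genes for the trend and 562 to 1745 for any difference. The counts at 10 µg/kg were 1 without vehicle replicate 2, vehicle replicate 3 or replicate 1 of 10 µg/kg, where Ugt1a7c alone was called, and 5 without replicate 1 of 3 µg/kg. The cause of these shifts was not tested.

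At 30 µg/kg DESeq2 also called Ugt2b36 (-1.12, adjusted p 0.0337) and Ugt2b5 (-1.48, adjusted p 0.0477) lower, the clock covariate called Ugt2b5 (-1.35, adjusted p 0.0128), as did the fit without vehicle replicate 1 (-1.83, adjusted p 0.0287), and removal of the length and GC trend called Sult1d1 (0.59, adjusted p 0.0391). Over all genes, DESeq2 called 84, 262 and 805 at 3, 10 and 30 µg/kg against 36, 97 and 628, and the fit of the compared groups alone called 6 at 3 µg/kg. Genes with changes near 0 turned sign at 30 µg/kg, none of them called: Sult2b1 (0.00 with RLE scaling, 0.00 with DESeq2, -0.03 with the index covariate, -0.01 without the length and GC trend), and, without that trend, Gsta1 (-0.07), Gstm6 (-0.02) and Gstp3 (-0.11). Over the fits without 1 library, the log2 change ranged from -0.18 to 0.52 for Gsta1, -0.84 to 0.39 for Gsta3, -0.21 to 0.05 for Gstk1, -0.34 to 0.12 for Gstm5, -0.06 to 0.29 for Gstm6, -0.21 to 0.12 for Gstm7, -0.05 to 0.24 for Gstp3, -0.27 to 0.28 for Gstt1, -0.34 to 0.13 for Sult1a1, -0.12 to 0.10 for Sult2b1 and -0.62 to 0.55 for Sult6b2. No paired analysis was possible because the labels tie no libraries of different doses. The 3 index sequences ran in accession order within every group. The fit with the index as a covariate is therefore also a block on the accession-order numbers. It called 2 conjugation genes at 10 µg/kg, 8 at 30 µg/kg, 8 for the trend and 7 for any difference. Over all genes it called 59, 482, 371 and 636 in that order. Depth limits Ugt1a8, Ugt1a10, Ugt2b38, Gsta2, Gsto2 and Sult1c2, which had at most 33 counts in any library.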

Other observations

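Sult6b2, a sulfotransferase family member, varied between libraries of the same dose more than any other conjugation gene tested. It had 15.7 and 29.3 CPM in vehicle replicates 2 and 3, 20.4 CPM in replicate 1 of 3 µg/kg, 20.5 CPM in replicate 1 of 10 µg/kg, and 20.2 and 20.5 CPM in replicates 1 and 2 of 30 µg/kg. It had 4.12 CPM in vehicle replicate 1, 2.22 and 1.70 CPM in replicates 2 and 3 of 3 µg/kg, 1.89 and 3.86 CPM in replicates 2 and 3 of 10 µg/kg, and 3.23 CPM in replicate 3 of 30 µg/kg. The 6 high libraries were the 6 with a positive clock score, in which the clock output gene Dbp had 29.0 to 121 CPM, against 0.980 to 3.39 CPM in the other 6. The gene was singled out after its values were seen, and the relation was not tested. Against vehicle, the 30 µg/kg group differed by -0.17 on the log2 scale (SE 0.99, adjusted p 0.948 in edgeR's quasi-likelihood test).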
